A study of Mus musculus with 16 samples.

Results

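The crypt stem cell and Wnt target genes described here are 10 genes chosen by name: Lgr5, Ascl2, Olfm4, Smoc2, Msi1 and Lrig1, which mark stem cells at the crypt base, and Axin2, Rnf43, Znrf3 and Fzd7, which belong to the Wnt pathway. They were picked out of 49585 genes with read counts in 16 cultures of mouse small intestinal organoids, and all 10 passed the filter on low counts that left 12559 genes for testing. The choice was made with earlier results of these data known. The cultures fell into 4 groups of 4: untreated Atg16l1 fl/fl (villin-cre negative), IL-22-treated Atg16l1 fl/fl, untreated Atg16l1 ΔIEC (villin-cre positive; Atg16l1 fl/fl) and IL-22-treated Atg16l1 ΔIEC. The mice were backcrossed to C57BL/6 and were 8 to 12 weeks of age, and IL-22 was given at 10 ng/ml for 24 h. Villin-cre acts in intestinal epithelial cells, so the deletion is limited to the epithelium, which is also what an organoid grown from crypts consists of. All 4 groups were grown in the same stem cell medium with EGF, Noggin and R-spondin 1. The Wnt pathway was therefore stimulated from outside in every culture, and levels of Wnt target genes were read on top of that supply.

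Each genotype was represented by 2 organoid lines, and each line by 2 untreated and 2 treated cultures. Values below are given in the order of the replicates, of which 1 and 2 belong to the first line and 3 and 4 to the second. Cultures of a line share their origin, so p-values over 4 cultures measure in part the spread between wells. Gene counts per culture ranged from 2135000 to 5574860. Atg16l1, the deleted gene, had 91 to 276 counts in the 8 fl/fl cultures and 1 to 21 in the 8 ΔIEC cultures, so the genotypes did not overlap. Epithelial genes were abundant, with Krt8 at 2466 ± 481 CPM (counts scaled to library size; SD, n = 4) in untreated fl/fl organoids. Markers of other tissues were scarce: the 8 stromal and endothelial markers summed to between 1.62 and 6.40 CPM per culture and none passed the filter, and the 7 immune markers summed to between 2.59 and 11.3 CPM.

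As background, crypt base columnar cells divide throughout life and renew the intestinal epithelium. Wnt ligands bind Frizzled receptors and stabilise β-catenin, which switches on target genes together with TCF factors, and R-spondin amplifies the signal by binding Lgr receptors and removing the ubiquitin ligases Rnf43 and Znrf3 from the cell surface. Several targets act back on the pathway, among them Axin2, a scaffold of the complex that degrades β-catenin. IL-22 is a cytokine of the IL-10 family that signals in epithelial cells mainly through STAT3.

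The 10 genes lie on 8 chromosomes of the mouse genome (build GRCm38, GENCODE release M21). Lgr5, the receptor for R-spondin and the standard marker of crypt base columnar cells, is at chr10:115450311-115587780 on the minus strand. Ascl2, a transcription factor of the stem cell programme, is at chr7:142966829-142969264 (minus). Olfm4, a secreted glycoprotein, is at chr14:79984081-80023139 (plus), and Smoc2, a secreted calcium-binding matrix protein, at chr17:14279506-14404790 (plus). Msi1, an RNA-binding protein, is at chr5:115429599-115455698 (plus), and Lrig1, a transmembrane inhibitor of ErbB receptors, at chr6:94604529-94700158 (minus). Axin2 (chr11:108920349-108950783, plus), Rnf43 (chr11:87662722-87735539, plus) and Znrf3 (chr11:5276324-5444847, minus) share chromosome 11. Fzd7, a Frizzled receptor, is at chr1:59482424-59486955 (plus). Counts cover whole genes, exons and untranslated regions included. Some reads may belong to overlapping genes, and the strand setting of the counting is not given in the sources used here. Gm11670, antisense to Axin2, had 30 to 91 counts per culture and in all 14.8% of the Axin2 total. Slc25a26, antisense to Lrig1, had 5.91% of the Lrig1 total. 1110028F11Rik, which overlaps Rnf43 on the same strand, had 6.63% of the Rnf43 total, and strand does not separate these.

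The sequence just before the start site is shown for 4 members whose counts changed in at least 1 comparison, as examples of the letters behind the motif counts below. The windows of Rnf43 and Fzd7, which also changed between genotypes, are not printed, so the letters behind the CTTTG match in Fzd7 cannot be read here. RefSeq (GRCm38.p6) gave promoter windows for 6 of the 10 members, 7 windows in all, and none was found for Lgr5, Smoc2, Msi1 and Znrf3. The 250 bases before the start were searched on both strands. Capitals mark CCAAT, which reads ATTGG on the other strand, and TATAA. The Olfm4 window lies inside the gene as GENCODE annotates it, which begins at chr14:79984081, so its start is the RefSeq start only. The last 51 bases of the Olfm4 window lie in an exon of the GENCODE annotation. The final 21 of them were left out and 30 are printed, with the TATAA match among them, and 13 bases of the Lrig1 window are also annotated as exon. The windows are Ascl2 at chr7:142969265-142969514 (minus strand), Lrig1 at chr6:94700146-94700395 (minus), Axin2 at chr11:108920099-108920348 (plus) and Olfm4 at chr14:80000052-80000280 (plus), each written 5′ to 3′ along the gene.
Ascl2: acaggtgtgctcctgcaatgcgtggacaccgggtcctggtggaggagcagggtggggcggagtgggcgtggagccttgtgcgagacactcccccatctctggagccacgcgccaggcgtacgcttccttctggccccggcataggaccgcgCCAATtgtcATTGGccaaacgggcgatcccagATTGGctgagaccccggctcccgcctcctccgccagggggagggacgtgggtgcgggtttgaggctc
Lrig1: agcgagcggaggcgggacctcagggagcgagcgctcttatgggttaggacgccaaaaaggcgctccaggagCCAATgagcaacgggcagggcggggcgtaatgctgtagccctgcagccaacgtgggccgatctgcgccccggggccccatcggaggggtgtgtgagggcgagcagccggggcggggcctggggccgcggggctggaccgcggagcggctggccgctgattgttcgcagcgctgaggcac
Axin2: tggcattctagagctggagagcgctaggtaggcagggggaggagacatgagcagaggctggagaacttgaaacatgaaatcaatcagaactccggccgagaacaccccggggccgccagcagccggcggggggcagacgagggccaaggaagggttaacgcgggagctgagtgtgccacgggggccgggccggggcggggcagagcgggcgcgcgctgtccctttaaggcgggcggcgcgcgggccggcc
Olfm4: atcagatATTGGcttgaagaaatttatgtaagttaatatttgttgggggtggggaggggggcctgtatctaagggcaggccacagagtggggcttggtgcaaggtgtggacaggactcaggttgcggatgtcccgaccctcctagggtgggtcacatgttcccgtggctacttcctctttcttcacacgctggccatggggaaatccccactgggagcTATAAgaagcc

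None of the 7 windows held CTTTGAT, a core sequence bound by TCF factors that 3.205% of the 32851 RefSeq promoter windows hold, or TTCNNNGAA, the STAT motif, which 7.02% hold. CTTTG, which is part of CTTTGAT, occurred in 1 window, that of Fzd7, against 48.577% of all windows. CCAAT occurred in 4 windows (33.85% of all) and TATAA in 1 (22.785%), at 32 bases before the RefSeq start of Olfm4. In Ascl2 the first of 3 CCAAT matches began 99 bases before the start. The search for the 3 motifs of 5 letters was added after the windows had been read. A match is a description of letters, and no match says only that these letters are absent from these windows.

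Levels of different genes were compared per length, as RPKM, which are TMM-scaled CPM divided by the exon length in kilobases. In untreated fl/fl organoids Olfm4 and Lrig1 were the highest, at 48.7 ± 26.6 and 46.6 ± 2.76 RPKM (mean ± SD, n = 4). Rnf43 (21.97 ± 1.78), Axin2 (19.2 ± 3.48), Smoc2 (18.6 ± 1.38) and Fzd7 (16.3 ± 1.75) followed, and neighbours in this order overlapped. Ascl2 (10.2 ± 1.39) and Lgr5 (9.85 ± 0.947) overlapped each other and lay below them. Znrf3 (3.30 ± 0.334) and Msi1 (2.96 ± 0.181) were the lowest and overlapped. In untreated ΔIEC organoids the order was led by Olfm4 alone, at 197 ± 19.9 RPKM, with Lrig1 next at 51.1 ± 2.22. Ascl2, at 24.1 ± 1.93 RPKM, there stood near Axin2 (25.9 ± 1.69) and Smoc2 (23.8 ± 1.71).

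**Figure D1:**
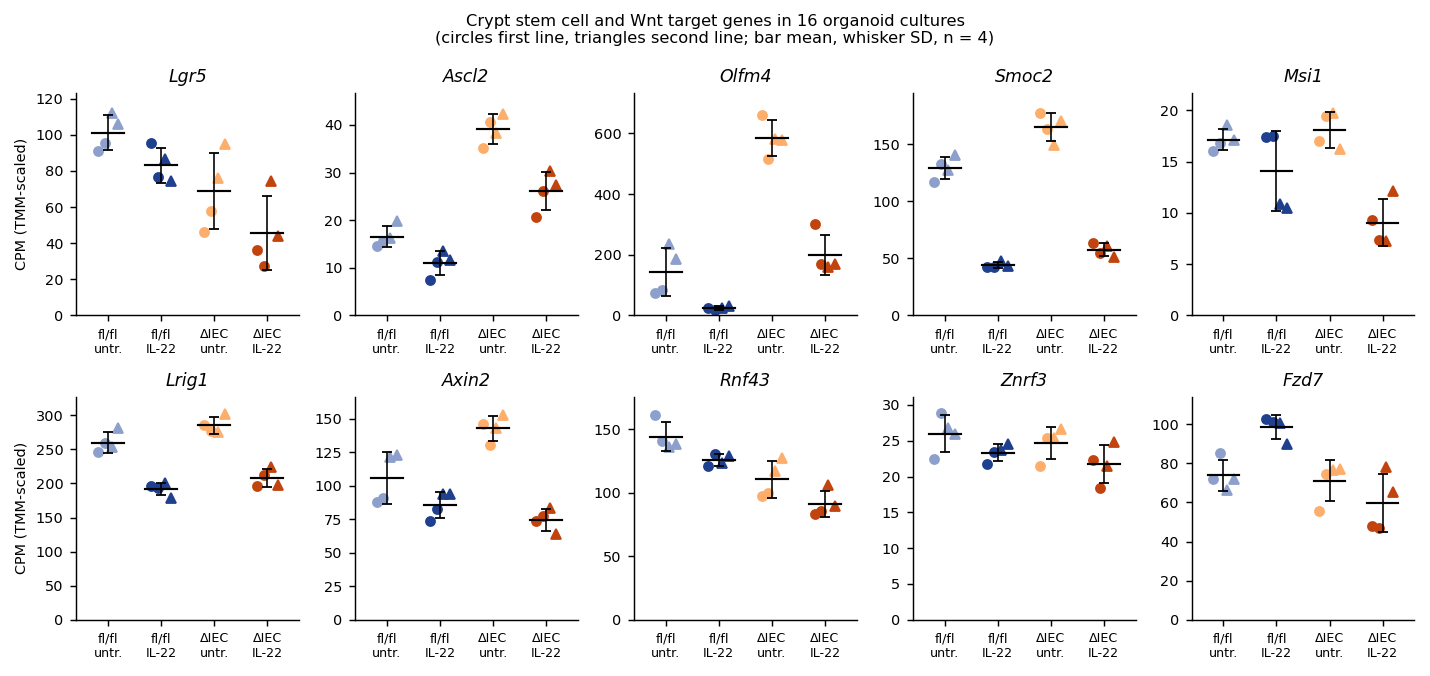
TMM-scaled CPM (linear axis from 0) of each of the 10 genes in the 16 cultures, by group; circles are the first and triangles the second organoid line of a genotype, horizontal bars the group mean and whiskers the SD (n = 4). Olfm4 and Smoc2 are lower in all 4 IL-22-treated cultures than in all 4 untreated cultures of each genotype, and Olfm4 and Ascl2 are higher in every ΔIEC culture than in every fl/fl culture of the same treatment.

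The first question was how stem cell and Wnt genes responded to IL-22. In fl/fl organoids 3 of the 10 genes fell with IL-22 (Olfm4, Smoc2 and Lrig1) and none rose, by edgeR's quasi-likelihood test at a Benjamini-Hochberg adjusted p below 0.01, where 10.2% of all tested genes fell and 10.6% rose (5265 genes had an unadjusted p below 0.05). In ΔIEC organoids 6 fell (Olfm4, Smoc2, Lrig1, Ascl2, Msi1 and Axin2) and none rose, against 7.65% and 9.83% of all tested genes. The median log2 fold change of the 10 genes was -0.29 in fl/fl and -0.56 in ΔIEC organoids, beside -0.045 and -0.0073 over all tested genes. The values were negative for 9 of 10 genes in fl/fl and 10 of 10 in ΔIEC organoids, and for 55.3% and 50.9% of all tested genes. These are bulk samples, in which fewer cells of a type and less RNA per cell cannot be told apart. The 2 genotypes shared no cultures in these comparisons, whereas the comparisons of genotypes below share their groups with them.

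**Figure D2:**
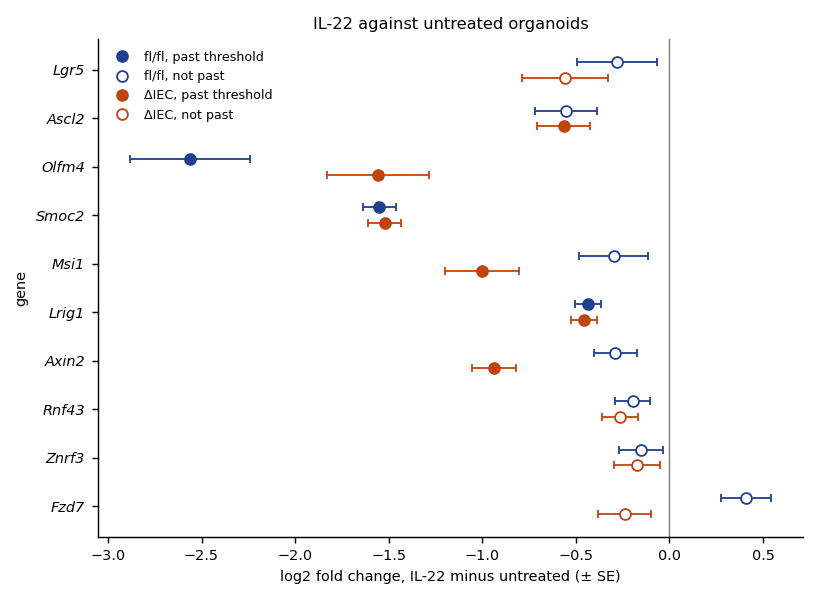
Log2 fold change, IL-22 minus untreated, with SE (whiskers), for each of the 10 genes in fl/fl (blue) and ΔIEC (orange) organoids; filled points passed an adjusted p of 0.01 in edgeR. Every point but that of Fzd7 in fl/fl organoids lies below 0, and Smoc2 lies at the same place in both genotypes, at -1.55 and -1.52.

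Smoc2 gave the most even response. Untreated fl/fl cultures had 117, 132, 127 and 140.4 CPM, and IL-22-treated fl/fl cultures 42.4, 42.5, 47.7 and 43.4 CPM. Untreated ΔIEC cultures had 178, 164, 149.6 and 170.3 CPM, and IL-22-treated ΔIEC cultures 64.0, 55.1, 60.7 and 51.5 CPM. The treated and untreated ranges were far apart in both genotypes, and both lines of each genotype lay close together. In fl/fl organoids Smoc2 fell 2.93-fold, or -1.55 on the log2 scale (SE 0.088, adjusted p = 1.15e-10), and in ΔIEC organoids it fell 2.87-fold (-1.52, SE 0.087, adjusted p = 9.84e-11). By p-value it ranked 21st and 26th of all tested genes. Within single lines the difference of mean log2 CPM lay between -1.54 and -1.50 in all 4 lines.

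Olfm4, which is used as a marker of crypt base columnar cells and is also known as a target of Notch and NF-κB signalling, had the largest fold change of the 10 genes and the widest spread between lines. It was at 73.3, 83.2, 234 and 187 CPM in untreated fl/fl cultures and at 25.3, 16.6, 25.5 and 29.7 CPM with IL-22. The second fl/fl line thus started higher than the first, and with IL-22 both lines were at similar levels. In ΔIEC organoids it was at 660.2, 517, 581 and 579 CPM untreated and at 300.1, 169, 159 and 170.2 CPM with IL-22. Treated and untreated cultures did not overlap in either genotype. In fl/fl organoids Olfm4 fell 5.90-fold, a log2 fold change of -2.56 with an SE of 0.32 (adjusted p = 5.90e-06), and in ΔIEC organoids it fell 2.94-fold (-1.56, SE 0.27, adjusted p = 2.08e-04). Without the second fl/fl line the fl/fl value was -1.95 (adjusted p = 2.16e-04), and without the second ΔIEC line the ΔIEC value was -1.37 and did not pass (adjusted p = 0.0345).

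Lrig1, by contrast, fell little and evenly. Untreated fl/fl cultures had 247, 259, 253 and 282 CPM and treated ones 196, 193, 201 and 179 CPM. Untreated ΔIEC cultures had 286, 276, 276 and 302 CPM and treated ones 196, 213, 225 and 197 CPM. The groups did not overlap in either genotype, and the log2 fold changes were -0.44 (SE 0.070, adjusted p = 8.04e-05) and -0.46 (SE 0.070, adjusted p = 5.23e-05). Without the second fl/fl line the fl/fl value was -0.38 and just missed the threshold (adjusted p = 0.0112).

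Ascl2 had low counts in fl/fl organoids, 19 to 74 per culture. It was at 14.6, 15.6, 16.3 and 19.8 CPM in untreated fl/fl cultures and at 7.52, 11.2, 13.5 and 11.7 CPM with IL-22. Every treated culture was below every untreated one, yet the change of -0.55 (SE 0.17) missed the threshold with an adjusted p of 0.0152. In ΔIEC cultures it was at 35.1, 40.6, 38.2 and 42.4 CPM untreated and at 20.7, 26.1, 30.2 and 27.5 CPM with IL-22, again without overlap, and a change of the same size passed (-0.57, SE 0.14, adjusted p = 0.00451). With the organoid line as a replicate block, a fit that compares treated and untreated cultures within lines, Ascl2 fell in both genotypes (adjusted p = 0.00301 in fl/fl and 2.28e-04 in ΔIEC). With the cultures of a line summed, which leaves 2 samples per group, it passed in neither (0.0889 and 0.0706). Without the block the calls were fragile. The fl/fl change passed without IL-22-treated replicate 3 (adjusted p = 0.00874). The ΔIEC change was lost without untreated replicate 2 (0.0171) or 4 (0.0151), without IL-22-treated replicate 1 (0.0142), 2 (0.012) or 4 (0.0108), and without the first (0.108) or second line (0.0333).

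Msi1 fell by 1.00 on the log2 scale in ΔIEC organoids (SE 0.20, adjusted p = 7.24e-04). ΔIEC cultures had 17.0, 19.4, 19.7 and 16.2 CPM untreated and 9.32, 7.39, 7.25 and 12.2 CPM with IL-22, on 23 to 79 counts. The groups did not overlap, but each line on its own, with 2 cultures against 2, missed the threshold (adjusted p = 0.0595 without the first line and 0.0105 without the second). In fl/fl organoids the 2 lines differed. Line 1 had 16.1 and 16.8 CPM untreated against 17.4 and 17.5 CPM with IL-22, and line 2 had 18.6 and 17.1 CPM against 10.9 and 10.5 CPM. The pooled fl/fl change was -0.30 (SE 0.18, adjusted p = 0.235), and it was 0.087 without line 2.

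Lgr5 was lower with IL-22 in the mean of every line, but its lines differed in level. Untreated fl/fl cultures had 90.9, 95.2, 112 and 106 CPM and treated ones 95.4, 76.7, 86.5 and 74.3 CPM. Untreated ΔIEC cultures had 46.4, 57.8, 76.0 and 94.7 CPM and treated ones 36.5, 27.6, 74.6 and 44.0 CPM. The groups overlapped in both genotypes. The changes were -0.28 (SE 0.21, adjusted p = 0.339, 95% interval -0.72 to 0.16) and -0.56 (SE 0.23, adjusted p = 0.0797, interval -1.04 to -0.074), and neither passed. With the line as replicate block the ΔIEC change was -0.61 and passed (adjusted p = 4.27e-04), and it also passed without IL-22-treated ΔIEC replicate 3, the highest culture of its group (-0.90, adjusted p = 0.00231). With the cultures of a line summed it did not pass (-0.58, adjusted p = 0.251).

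Among the Wnt genes, Axin2, a widely used readout of β-catenin activity, fell in ΔIEC organoids and did not pass in fl/fl organoids. Untreated ΔIEC cultures had 146, 130.2, 143 and 152 CPM and treated ones 73.3, 77.3, 83.4 and 64.2 CPM, with no overlap, which is a 1.91-fold fall (-0.94 on the log2 scale, SE 0.12, adjusted p = 4.95e-06). In fl/fl organoids it was at 87.7, 90.6, 121 and 123 CPM untreated and at 73.6, 82.7, 93.5 and 93.5 CPM with IL-22. The second line was higher than the first under both treatments, so the groups overlapped, and the change of -0.29 (SE 0.12) had an adjusted p of 0.0634. With the line as replicate block the same change passed (-0.29, adjusted p = 0.00427), but on sums per line it did not (0.247).

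Fzd7 was the one member with a positive value. In fl/fl organoids it was at 71.9, 85.2, 66.6 and 72.2 CPM untreated and at 103, 101, 101 and 89.9 CPM with IL-22. Every treated culture was above every untreated one, and the change of 0.41 (SE 0.14) had an adjusted p of 0.0261, or 5.14e-04 with the line as replicate block and 0.164 on sums per line. In ΔIEC organoids it was at 55.6, 74.8, 76.8 and 77.3 CPM untreated and at 48.2, 46.9, 78.0 and 65.4 CPM with IL-22, where the change was -0.24 (SE 0.14, adjusted p = 0.231) and the groups overlapped.

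The ubiquitin ligases Rnf43 and Znrf3, which remove Frizzled receptors, did not pass in either genotype. Rnf43 was at 161, 141, 136 and 139 CPM in untreated and 121, 130.4, 123 and 129 CPM in treated fl/fl cultures. These groups did not overlap, but the change of -0.20 (SE 0.093, adjusted p = 0.116) did not pass. In ΔIEC cultures it was at 97.4, 99.4, 117 and 128 CPM untreated and 83.4, 85.8, 106 and 89.4 CPM with IL-22 (-0.27, SE 0.097, adjusted p = 0.0471, or 0.00541 with the line as replicate block and 0.237 on sums per line). Znrf3 stayed between 18.5 and 28.8 CPM in all 16 cultures, and its changes were -0.15 (95% interval -0.40 to 0.093) and -0.17 (-0.43 to 0.082), neither of which passed.

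Counted over the members, treated and untreated groups did not overlap for 5 lower genes and 1 higher gene in fl/fl organoids, where 15.4% of all tested genes were lower and 15.4% higher without overlap. In ΔIEC organoids 6 members were lower without overlap, against 13.2% of all tested genes, and none was higher, against 14.1%. With the line as replicate block 5 members fell and 1 rose in fl/fl (15.6% of tested genes fell and 15% rose) and 8 fell and none rose in ΔIEC organoids (11.7% and 13.8%). On sums per line, Olfm4 (adjusted p = 0.00524) and Smoc2 (7.63e-05) passed in fl/fl and Smoc2 (9.82e-05) and Axin2 (0.00608) in ΔIEC organoids, while Lrig1 was lost in both (0.0159 and 0.015) and Olfm4 (0.0233) and Msi1 (0.0317) in ΔIEC organoids.

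**Figure D3:**
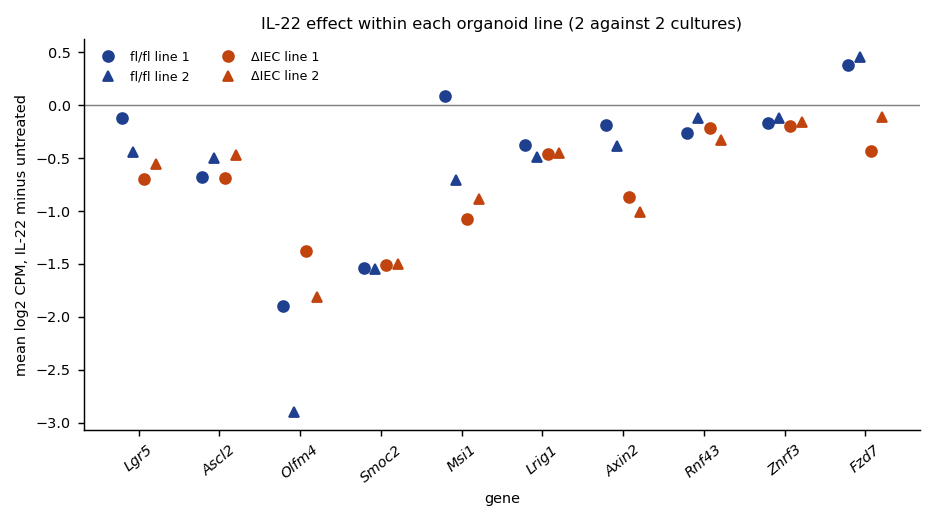
Difference of mean log2 CPM, IL-22 minus untreated, within each of the 4 organoid lines (2 cultures against 2), for each gene. Smoc2, Lrig1 and Znrf3 lie close together in all 4 lines, Olfm4 spreads from -2.90 to -1.37, Msi1 is 0.084 in the first fl/fl line and below 0 in the other lines, and Fzd7 is above 0 in both fl/fl lines and below 0 in both ΔIEC lines.

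Whether the response to IL-22 depended on genotype was tested as the interaction, the ΔIEC change minus the fl/fl change. None of the 10 genes passed in edgeR, where 0.00796% of all tested genes passed as higher and 0.00796% as lower, 0.0159% in all, and 912 had an unadjusted p below 0.05. DESeq2's likelihood ratio test also passed none of them, although it gave no adjusted p for Lgr5, Ascl2, Msi1, Znrf3 and Fzd7. The largest value was that of Olfm4, 1.00 (SE 0.42, adjusted p = 0.586), which is a smaller fold fall in ΔIEC organoids. Its size rested on the fl/fl lines, at 0.39 without the second and 1.35 without the first. Axin2 had -0.65 (SE 0.16, adjusted p = 0.285), Fzd7 -0.65 (SE 0.20, adjusted p = 0.408) and Msi1 -0.70 (SE 0.27, adjusted p = 0.552). Smoc2 had 0.030 with a 95% interval of -0.23 to 0.29 and Lrig1 -0.018 with an interval of -0.22 to 0.19. With the line as replicate block Axin2 (-0.65, SE 0.11, adjusted p = 0.00183) and Fzd7 (-0.69, SE 0.14, adjusted p = 0.00577) passed as lower, as did 0.326% of all tested genes (0.119% as higher, 0.446% in all), and Olfm4 had an adjusted p of 0.0239. Without a filter on low counts Olfm4 (adjusted p = 2.67e-08) and Axin2 (0.00437) passed, at nearly unchanged values of 1.00 and -0.65. With at least 10 counts in every culture neither passed (0.569 and 0.286), nor did they with RLE scaling (0.61 and 0.227). The Olfm4 call thus rests on the p-value of the unfiltered fit alone, not on a larger difference.

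The second question was whether loss of Atg16l1 changed these genes before and during IL-22. In untreated organoids Ascl2, Olfm4 and Smoc2 were higher and Rnf43 was lower in ΔIEC than in fl/fl organoids, 3 and 1 of 10 genes, against 3.78% higher and 5.98% lower of all tested genes. With IL-22, Ascl2, Olfm4 and Smoc2 were again higher, and Lgr5, Rnf43 and Fzd7 were lower, against 9.91% and 9.84%. Groups did not overlap for 4 higher members and 1 lower member in untreated organoids (10.6% and 12.6% of all tested genes) and for 3 higher and 2 lower members with IL-22 (15.4% and 14.2%). Each genotype is 2 lines, so genotype and line cannot be told apart in these comparisons, and no fit with the line as a block exists for them.

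**Figure D4:**
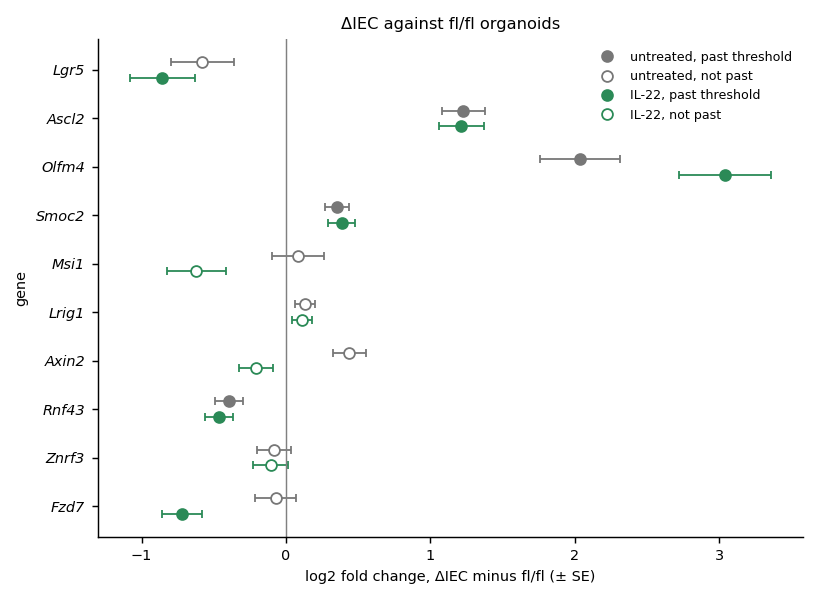
Log2 fold change, ΔIEC minus fl/fl, with SE (whiskers), for each of the 10 genes in untreated (grey) and IL-22-treated (green) organoids; filled points passed an adjusted p of 0.01 in edgeR. Olfm4 (2.04 and 3.04) and Ascl2 (1.23 and 1.21) lie far to the right under both treatments, and Lgr5 (-0.58 and -0.86) lies to the left.

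Olfm4 was 4.10-fold higher in untreated ΔIEC organoids (2.04 on the log2 scale, SE 0.28, adjusted p = 7.08e-05) and 8.23-fold higher with IL-22 (3.04, SE 0.32, adjusted p = 2.37e-06). Its lowest untreated ΔIEC culture, at 517 CPM, was above its highest untreated fl/fl culture, at 234 CPM. The size of the untreated difference rested on the fl/fl lines: it was 2.90 without the second line and 1.48 without the first, and it passed both times (adjusted p = 3.38e-07 and 1.93e-04). Ascl2 was 2.34-fold higher in untreated (1.23, SE 0.15, adjusted p = 2.05e-05) and 2.32-fold higher in treated ΔIEC organoids (1.21, SE 0.16, adjusted p = 1.81e-05). Its groups did not overlap under either treatment, and it passed with each culture and each line left out. When the 2 cultures of each line were summed, leaving 2 against 2, neither gene passed in untreated organoids (adjusted p = 0.0199 for Ascl2 and 0.0307 for Olfm4). On the same sums both passed in treated organoids (0.0089 for Ascl2 and 0.0065 for Olfm4).

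Smoc2 was 1.28-fold higher in untreated (0.35, SE 0.082, adjusted p = 0.00485) and 1.31-fold higher in treated ΔIEC organoids (0.38, SE 0.092, adjusted p = 0.00356), without overlap. Both calls were close to the threshold. The untreated one was lost without untreated ΔIEC replicate 1 (0.0237), 2 (0.0136) or 4 (0.0152), fl/fl replicate 1 (0.0221), 2 (0.0127) or 3 (0.0106), the first (0.0665) or second ΔIEC line (0.0108) or the first fl/fl line (0.0661). The treated one was lost without IL-22-treated ΔIEC replicate 1 (0.0121) or 3 (0.0104), fl/fl replicate 1 (0.0106), 2 (0.013) or 4 (0.0101), or any one of the 4 lines (0.0115 to 0.0564).

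Lgr5 was lower in treated ΔIEC organoids (-0.86, SE 0.23, adjusted p = 0.00672), although the groups overlapped and the call was lost with the cultures of each line summed (0.0829), and in untreated ones it had a value of -0.58 (SE 0.22, adjusted p = 0.0656). The first ΔIEC line was the lowest at 27.6 to 57.8 CPM over both treatments. Without the second ΔIEC line the treated value was -1.42 (adjusted p = 2.32e-05) and the untreated one -0.93 (8.98e-04), and without the first they were -0.49 (0.0611) and -0.24 (0.401). The treated call was also lost without IL-22-treated ΔIEC replicate 1 (0.0238), 2 (0.0283) or 4 (0.0192), fl/fl replicate 1 (0.0194), 2 (0.0107) or 3 (0.018), and the first (0.029) or second fl/fl line (0.0248). Msi1 and Lrig1 did not pass under either treatment, with values of 0.084 and 0.13 untreated and -0.62 (adjusted p = 0.0235) and 0.11 with IL-22. Msi1 passed in treated organoids without ΔIEC replicate 4 (0.00845) or the second fl/fl line (0.00255).

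Rnf43 was lower in untreated (-0.39, SE 0.095, adjusted p = 0.00625) and treated ΔIEC organoids (-0.46, SE 0.096, adjusted p = 0.00113), without overlap. The untreated call was lost without untreated ΔIEC replicate 1 (0.0326) or 2 (0.0295), fl/fl replicate 1 (0.0276) or 2 (0.0148), the first ΔIEC line (0.141) or the first fl/fl line (0.0817), and the treated one without the first ΔIEC line (0.0187). Fzd7 was lower with IL-22 (-0.72, SE 0.14, adjusted p = 6.22e-04), and its untreated value of -0.073 did not pass (adjusted p = 0.756). Its treated value was -1.08 without the second ΔIEC line and -0.47 without the first (adjusted p = 4.83e-05 and 0.00959). Axin2 was higher in every untreated ΔIEC culture than in every fl/fl culture, but its value of 0.44 (SE 0.11) just missed the threshold (adjusted p = 0.0105). It passed without untreated fl/fl replicate 3 (0.0059) or 4 (0.00461), without the second fl/fl line (0.68, 2.58e-04) and in DESeq2 (0.00416). With IL-22 it was -0.21 (adjusted p = 0.184). Znrf3 had -0.086 and -0.11, and neither passed. On sums per line the calls of Smoc2 (0.0971 untreated and 0.0492 treated), Rnf43 (0.133 and 0.05) and Fzd7 (0.036 treated) were lost.

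Other genes of the stem cell and of the Wnt pathway were taken from lists written from general knowledge, with earlier results of these data known. Of 16 other genes reported for crypt base columnar cells, 5 fell and 2 rose with IL-22 in each genotype. The falling genes were Slc14a1, a urea transporter (-2.53 in fl/fl and -3.79 in ΔIEC organoids), Rgmb, a BMP co-receptor (-1.08 and -1.24), Slc12a2, an ion cotransporter (-1.01 and -1.03), Rnf32 (-1.63 and -0.96) and Cdk6, a cell cycle kinase (-0.57 and -0.58). Prom1, which encodes a membrane glycoprotein also found outside stem cells (1.02 and 1.04), and Kcne3, a potassium channel subunit (0.80 and 0.78), rose. The list median was -0.17 and -0.27, with Nrn1 included although its ΔIEC cultures had only 0 to 1 counts under either treatment. Slc12a2 was the most abundant of them, at 1416 ± 97.6 CPM in untreated and 702 ± 60.1 CPM in treated fl/fl organoids. Between genotypes, 1 of 16 was higher and 3 lower in untreated organoids: Kcne3 was higher (0.58) and Slc14a1 (-1.21), Soat1 (-0.52) and Nrn1 were lower. Nrn1 was at 0 to 1 counts in the untreated ΔIEC cultures against 32.6 ± 8.33 CPM in untreated fl/fl organoids, at least 33.4-fold lower with 3 counts per culture as the floor.

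The other Wnt pathway lists are set beside the shares of all tested genes. With IL-22, 10.6% of these rose and 10.2% fell in fl/fl organoids, and 9.83% and 7.65% in ΔIEC organoids. Of 11 tested Wnt target genes of the intestine other than the members, 1, the transcription factor Sp5, passed in fl/fl organoids (0.92, adjusted p = 4.96e-04) and none in ΔIEC organoids, and the medians were -0.055 and 0.035. Among them Myc had -0.18 and -0.052, Ccnd1 -0.055 and 0.23, and Cd44 -0.098 and 0.047. Of 12 tested receptors, Lgr4, another R-spondin receptor, rose in both genotypes (0.35 and 0.45), and Fzd4 (-0.69) and Fzd2 (-0.96) fell in ΔIEC organoids. Of 13 genes of the destruction complex and Dishevelled, Csnk1a1, a kinase that primes β-catenin for degradation, rose in both genotypes (0.32 and 0.27). Of 7 TCF factors and co-factors, the co-repressor Tle4 rose in both (0.46 and 0.50), Pygo2 rose in fl/fl (0.32) and Tle1 fell in ΔIEC organoids (-0.46). Only 3 of 16 ligands and secretion genes were tested, of which Wls, which carries Wnt ligands to the surface, fell in ΔIEC organoids (-0.54). Of 2 tested inhibitors, Kremen2 rose in ΔIEC organoids (1.68).

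Genes linked to reserve or injury-associated stem cells included 9 tested genes, of which 3 rose with IL-22 in each genotype. Ly6a, which encodes Sca-1, rose by 3.11 in fl/fl and 3.27 in ΔIEC organoids, from 43.9 ± 22.1 to 388 ± 48.3 CPM in fl/fl. Anxa1 (2.26 and 2.16) and Anxa3 (1.45 and 1.22), both annexins, also rose, and Hopx fell in fl/fl organoids (-0.48). Clu, a marker of revival stem cells, did not pass with IL-22 in either genotype (-0.071 and 0.28), but was higher in ΔIEC than in fl/fl organoids under both treatments (0.86 and 1.21).

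**Figure D5:**
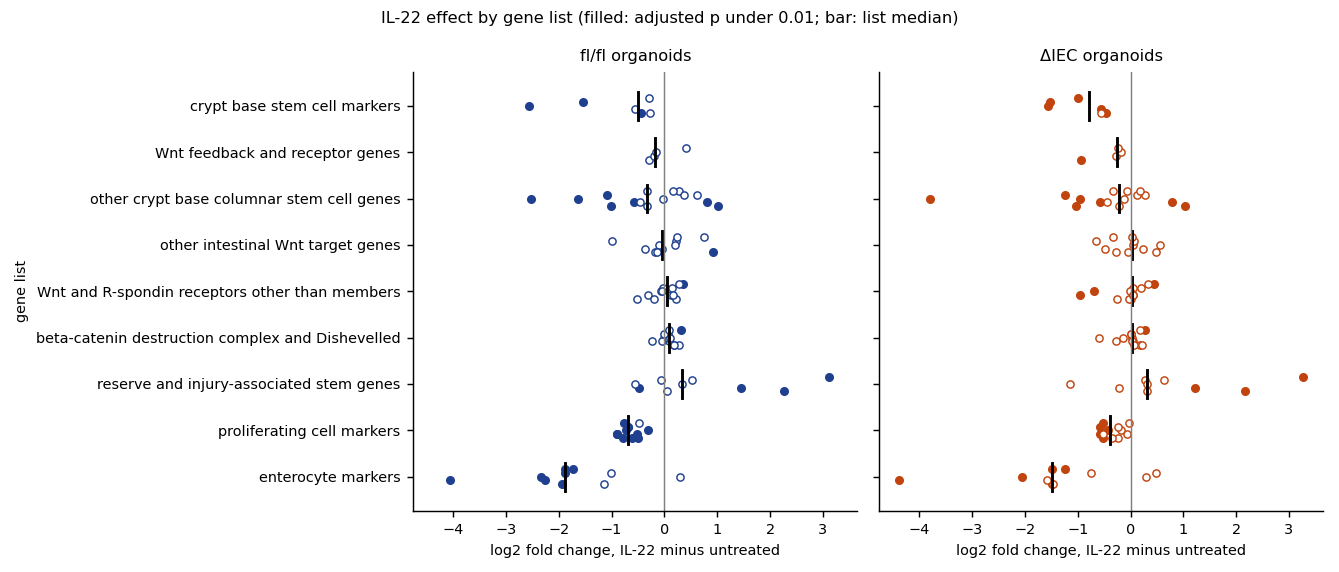
Log2 fold change, IL-22 minus untreated, of each tested gene in 9 lists, in fl/fl (left) and ΔIEC (right) organoids; filled points passed an adjusted p of 0.01 in edgeR and bars are list medians. Nrn1 is left out of its list in both panels because its ΔIEC groups are at the floor, so the bars of that list are medians without it. The members, proliferation and enterocyte lists lie mainly below 0, and the destruction complex list lies around 0.

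Markers of other cells moved in the same comparisons. With IL-22 11 of 12 proliferation genes fell in fl/fl (median -0.69) and 5 of 12 in ΔIEC organoids (median -0.39), and their summed level went from 1470 to 2033 CPM per culture to 1017 to 1277 CPM in fl/fl and from 2244 to 2422 CPM to 1694 to 2096 CPM in ΔIEC organoids. Of 10 enterocyte markers, 7 fell in fl/fl (median -1.89) and 5 in ΔIEC organoids (median -1.48), and the summed level went from 5372 to 6450.3 CPM down to 2098 to 2450 CPM in fl/fl organoids. Between genotypes, 1 enterocyte marker was higher in untreated and 3 in treated ΔIEC organoids (medians 0.14 and 0.74), and none was lower. Of 9 Paneth cell markers 2 rose with IL-22 in each genotype, Mmp7 and Pla2g2a. Between genotypes, the untreated sum of the Paneth markers was 5696 to 8184 CPM in fl/fl and 3193 to 4193 CPM in ΔIEC cultures, with 5 of 9 lower in ΔIEC organoids, although reads of near-identical defensin genes may be shared among them. Proliferation genes were higher in ΔIEC organoids, 5 of 12 untreated and 11 of 12 with IL-22. Of 7 goblet cell markers, 3 rose and 1 fell with IL-22 in fl/fl (median -0.19), and 2 rose and 2 fell in ΔIEC organoids (median -0.83). Between genotypes, 3 were lower in untreated and 4 in treated ΔIEC organoids (medians -0.45 and -0.91), and their sum was 1740.3 to 2657 CPM in untreated fl/fl and 1326 to 1775 CPM in untreated ΔIEC cultures. Of 7 enteroendocrine markers 1 rose with IL-22 in each genotype (medians 0.27 and 0.17), and 2 were lower in untreated and 3 in treated ΔIEC organoids (medians -0.81 and -0.80). Of 3 tested tuft cell markers 1 rose with IL-22 in each genotype and none passed between genotypes. The part of these cell type differences in the values of the 10 genes was not tested.

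Between genotypes, Wls was lower in ΔIEC organoids under both treatments (-0.59 and -0.87), Cd44, a hyaluronan receptor, was higher (0.73 and 0.88), and with IL-22 the factor Prox1 (-1.73) and the cyclin Ccnd2 (-0.39) were lower. Of 12 tested receptors, 2 were lower in untreated and 3 in treated ΔIEC organoids, and none was higher. With IL-22, 1 of 13 destruction complex and Dishevelled genes and 1 of 7 TCF factors and co-factors were lower, and 1 of 2 tested inhibitors was higher. Of the 16 other crypt base columnar genes, 1 was higher and 4 were lower with IL-22.

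For the members described most, the 3 genes with the nearest pattern were found by the root mean square difference of centred log2 CPM over the 16 cultures. For Smoc2 they were Aldh1b1 (0.217), Rgcc (0.220) and Zranb3 (0.256), where the median over all tested genes was 0.826. For Lgr5 they were Greb1 (0.220), Zfp395 (0.227) and Insc (0.232), against a median of 0.642. For Ascl2 they were Nmral1 (0.195), Tiam1 (0.270) and Tipin (0.281), against 0.762. The nearest genes of Olfm4, Rbp2 (0.741), Acot1 (0.757) and Akr1c19 (0.772), were at a greater distance than those of the other members named here, against a median of 1.72. The distance is not scaled and grows with the size of a gene's own changes, so distances of different members do not compare directly. For Axin2 the 2 nearest were Etv5 (0.179) and the overlapping antisense gene Gm11670 (0.185), against 0.477. For Fzd7 they were Sept8 (0.140), Osbpl3 (0.151) and Smad3 (0.157), against 0.452. These values describe patterns over cultures that share lines and libraries.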

How the data were processed

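RNA sequencing measured gene expression in 16 organoid cultures, 4 per group. The authors trimmed reads with cutadapt, used TopHat2 for alignment to GRCm38 and HTSeq for counting per gene (versions not given in the sources used here), and the deposited values are these counts, without normalization. The library kit is a TruSeq RNA v2 in the labels, and a stranded total RNA protocol in the methods; the annotation release and strand setting of the counting are not given in the sources used here. Lines that name no gene were left out of library sizes and tests: 38.0% to 40.1% of reads lay on no feature, 21.5% to 24.2% were not unique and 0.740% to 1.13% ambiguous. Of the 49585 gene identifiers, 49326 (99.5%) were matched without version to GENCODE M21 symbols.

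Counts were tested in R 4.3.3 with edgeR 4.0.16 (filterByExpr, TMM, 1 quasi-likelihood fit of 4 group means over all 16 cultures), two-sided, with Benjamini-Hochberg adjustment over 12559 tested genes and a threshold of 0.01. The common biological coefficient of variation was 0.115. Each SE was taken as the size of the log2 change over the root of its F value, and 95% intervals use the t quantile of the fit. RPKM used exon-union lengths. Log2 CPM used a prior count of 2. A group with at most 3 counts in every culture was treated as at the floor. Gene counts per culture had a median of 3499280; floors cover counting error only. Replicates of a group differed by more than sampling noise (chi-square per degree of freedom at least 1.35). Same-numbered lines pair treated and untreated cultures, because the labels name the same line: deviations from group means correlated at 0.263 to 0.438 within and -0.435 to -0.218 between fl/fl lines, and at 0.0563 to 0.321 and -0.352 to -0.0779 in ΔIEC organoids. Alternatives were DESeq2 1.42.0, RLE scaling, no filter, at least 10 counts in every culture, cultures of a line summed, the line as replicate block, a threshold of 0.05, and each culture or line left out. The steps were tested on simulated counts. These were drawn without differences between lines, so they do not show how the fits deal with cultures that share a line.

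The members and lists were chosen with earlier results of these data known. All 10 members are named, with up to 4 passing genes per direction with the smallest p from each other list, the 3 nearest genes of the members described most, and the most abundant marker of a list. Values of Myc, Ccnd1, Cd44 and Clu in comparisons in which they did not pass were added after their values were seen. Of the nearest genes, 1 is not reported here.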

Additional observations from a re-analysis of the deposited data

Results flagged for a closer look

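In the scan of 40 groups of 4 cultures (10 genes in 4 groups) for a culture far from the other 3, by the gap to its nearest neighbour over the range of the group, 2 were marked, and chance marks about 2 of 40. Olfm4 was at 300.1 CPM in IL-22-treated ΔIEC replicate 1, while the other cultures of that group were at 159 to 170.2 CPM. Fzd7 was at 55.6 CPM in untreated ΔIEC replicate 1, while the others were at 74.8 to 77.3 CPM. The causes were not tested.

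The difference of the IL-22 effect between genotypes passed for 2 genes in the fit with the line as replicate block. That fit takes 1 IL-22 effect for both lines of a genotype. Its p-values therefore rest in large part on the spread between wells, and say little on how the effect varies between lines. The ΔIEC minus fl/fl difference was -0.65 for Axin2 (adjusted p = 0.00183) and -0.69 for Fzd7 (adjusted p = 0.00577). Neither passed without the block (adjusted p = 0.285 and 0.408), and both had, when cultures were added up per line, an adjusted p of 0.9998. Both ΔIEC lines lay below both fl/fl lines for each gene.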

How the results depend on the processing

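Shares of all tested genes are given above for the main fit and the fit with the line as replicate block only. Counts of members under the other settings show which calls moved, and not how the members compare with all genes. Without a filter on low counts, 1 member rose with IL-22 in fl/fl organoids, 1 interaction passed as higher and 1 as lower, and 2 members were lower in untreated ΔIEC organoids. In that fit Lgr5 also fell with IL-22 in ΔIEC organoids (adjusted p = 5.07e-05), and Axin2 was higher in untreated ΔIEC organoids (2.37e-04). The Olfm4 interaction was 0.997 in that fit against 1.00 in the main fit, while its adjusted p went from 0.586 to 2.67e-08. With the line as replicate block (a paired fit), 1 member rose and 5 fell in fl/fl organoids and 2 interactions passed as lower, and no member passed without the block and not with it. With the cultures of a line summed, 2 members fell with IL-22 in ΔIEC organoids, 0 were higher and 0 lower in untreated ΔIEC organoids, and 0 were lower in treated ones. At an adjusted p of 0.05, 1 member rose in fl/fl organoids. Ascl2 then also fell in fl/fl (0.0152) and Rnf43 in ΔIEC organoids (0.0471). Axin2 was then higher in untreated (0.0105) and Msi1 lower in treated ΔIEC organoids (0.0235). With each culture or line left out in turn, members lower in untreated ΔIEC organoids ranged from 0 to 2, those lower in treated ΔIEC organoids from 1 to 3, and those that fell with IL-22 in ΔIEC organoids from 3 to 7. The leave-one-out fits were the ones in which a value changed sign. These values lay between -0.17 and 0.047 for Fzd7 in the untreated comparison, -0.70 and 0.087 for Msi1 with IL-22 in fl/fl organoids, and, for the interaction, -0.17 and 0.11 (Ascl2), -0.022 and 0.083 (Smoc2), -0.077 and 0.014 (Lrig1), -0.11 and 0.057 (Znrf3) and -0.16 and 0.0047 (Rnf43). DESeq2, RLE scaling and a minimum of 10 counts in every culture moved 1 call, Axin2 in untreated organoids, which passed with DESeq2 (0.00416) and RLE (0.00997). Apart from fewer samples in the summed and leave-one-out fits, causes were not tested. Depth limits Ascl2 and Msi1 most, with 19 and 23 counts in their lowest cultures.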
